A study of Drosophila melanogaster with 40 samples.

Results

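The loci of chromosome 4 of Drosophila were followed in S2 cells over 2 RNA-Seq time courses. A locus was taken as a member when the deposited annotation of the table placed it on chromosome 4, which gave 102 of the 15863 loci at 25°C, and the same 102 loci could be matched by their RefSeq accessions in the table at 28°C. Of these, 78 held at least 1 protein-coding RefSeq transcript and 24 held only non-coding RNA, and 100 could be given a gene name. S2 is an established line derived from Drosophila embryos with properties of hemocytes, the blood cells of the fly. In both courses cells were entrained by temperature cycles and then kept at constant temperature, and cells were sampled at 3-h intervals between CT24 and CT81, where CT is circadian time in h, with 1 library per time and 20 per course. At 25°C the entrainment had lasted for at least a week, the medium was changed before the release and polyA RNA was sequenced. At 28°C the entrainment was shorter, the RNA was depleted of rRNA and coverage was low, with alignments subsampled by the authors. No time point had a labelled replicate. The SD given with the mean of a locus is the scatter of its profile over its 20 libraries, which includes any drift over time. The SE of a change rests on the scatter about a straight line in time. Temperature, entrainment, RNA fraction and depth all differ between the courses and cannot be told apart, so values of the courses are set side by side without a test. Both courses come from 1 cell line, and p-values treat successive libraries as independent.

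Chromosome 4 is the smallest of the fly, also known as the dot chromosome. Most of it is packed as heterochromatin rich in repeats, with HP1a bound along it, and yet its genes are transcribed in many tissues. It is the only autosome with a protein of its own, Pof, which binds the transcribed genes of this chromosome, while the methyltransferase Eggless (egg) methylates histone H3 there. It is known for a set of developmental regulators, such as the Hedgehog effector ci and the Pax6 genes ey and toy, beside housekeeping genes.

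Values are FPKM, read numbers scaled by transcript length and by the mapped reads of the library, as scaled by the authors within each course. The FPKM of all loci of a library summed to between 978685 and 1162420 at 25°C and to between 497153 and 1217370 at 28°C. The numbers of reads are not kept in FPKM. Relative depth, estimated from loci seen in few libraries, ranged from 0.573 to 1.54 times the median library at 25°C and from 0.251 to 2.12 times at 28°C, where 3 libraries (CT27, CT48 and CT60) lay below 0.5. Of 9 hemocyte markers 6 were expressed at 25°C and 8 at 28°C, while Hml, Sr-CI and NimC1 lay near 0 at 25°C. At 28°C Hml had a mean of 10.0 FPKM with a lowest value of 1.69, Sr-CI a mean of 2.99 FPKM and NimC1 of 0.788 FPKM. The cause of this difference between the courses was not tested. Of 19 listed markers of neurons, muscle, fat body and germ line, only the neuronal genes elav and brp were found above the threshold at 25°C. Their means were 6.65 and 5.77 FPKM. The listed germ line gene nos was not measured, since its symbol was matched to Nos on 2L, a different gene. Loci of chromosome arms 2L, 3L and 3R served as the comparison, and are called the 3 arms.

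A locus was called expressed when its mean over the 20 libraries was at least 0.9 FPKM. In bulk RNA, a change in the number of cells that express a gene and one in the RNA per cell cannot be told apart. At 25°C, 58 of the 102 loci of chromosome 4 (56.9%) were expressed, against 46.0% of the loci of the 3 arms, where the shares were 41.9% for 2L, 46.7% for 3L and 49.0% for 3R. Among loci with a coding transcript the share was 64.1% on chromosome 4 (50 of 78) and 50.9% on the 3 arms. At 28°C the count on chromosome 4 was again 58, against 45.2% of the loci of the 3 arms. Some of these 58 passed on few libraries. For example, asRNA:CR45124, asRNA:CR43957 and CG33521 had medians of 0 FPKM and were listed at 0 in 18, 15 and 13 libraries. Expressed loci were listed at 0 in a median of 1 library on chromosome 4 and 3 on the 3 arms in that course. Of the 24 loci with RNA only 8 were expressed in each course. In both courses 54 loci were expressed and in neither course 40. Among the 44 unexpressed loci, 3 were listed at 0 in all libraries at 25°C, mir-954 among them, and 26 at 28°C. Of the remaining loci 4 were expressed at 25°C alone (Kif3C, Syt7, snoRNA:CD-24 and lncRNA:CR43956) and 4 at 28°C alone (CG1674, dati, lncRNA:CR44441 and lncRNA:CR45200). Most of these lay close to the threshold. The 4 at 28°C alone rested on few libraries. CG1674, lncRNA:CR44441 and lncRNA:CR45200 had medians of 0 FPKM there and were listed at 0 in 15, 18 and 18 libraries. For dati the median was 0.700 FPKM, with 9 libraries at 0. At 25°C the loci just above it were Syt7 with 1.05 FPKM, Kif3C with 1.35 FPKM and asRNA:CR45124 with 1.38 FPKM, and the loci just below it were lncRNA:CR45201 with 0.899 FPKM, asRNA:CR44030 with 0.873 FPKM and CG31997 with 0.858 FPKM. At 28°C lncRNA:CR45200 (0.917 FPKM) lay just above it and CG11155 (0.888 FPKM) just below. The non-coding loci snoRNA:CD-24 and lncRNA:CR43956 are a different case, with means of 41.8 and 16.1 FPKM at 25°C and listed at 0 in all libraries at 28°C. At 25°C, however, snoRNA:CD-24 was listed at 0 in 13 of the 20 libraries and its median was 0 FPKM. lncRNA:CR43956 lay between 8.16 and 31.0 FPKM in that course.

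**Figure D1:**
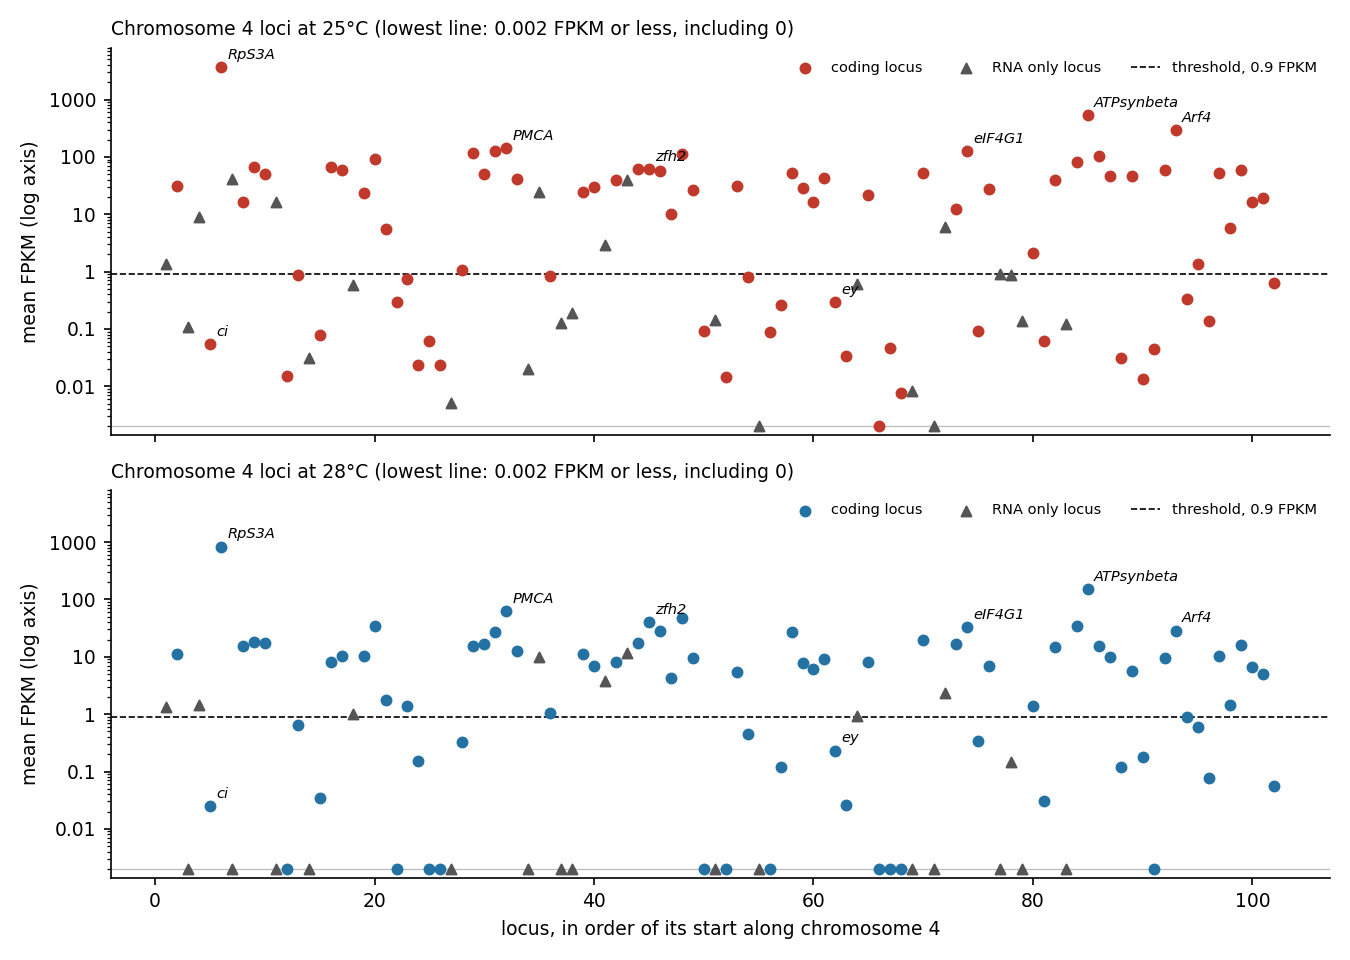
Mean FPKM over 20 libraries (log axis) of the 102 loci of chromosome 4, in the order of their start along the chromosome, at 25°C and 28°C. Circles are loci with a coding transcript, triangles loci with RNA only, the dashed line is the threshold of 0.9 FPKM, and points on the lowest line include loci listed at 0. Expressed and unexpressed loci are interspersed along the whole chromosome, partly in runs of the same state, and RpS3A is the highest in both courses.

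Expressed and unexpressed genes were interspersed along the chromosome. At 25°C the 78 coding loci, ordered by their start, fell into 30 runs of the same state, and 48 of the 77 neighbouring pairs shared their state. The longest run of expressed loci held 9, from lgs to Ephrin (positions 457583 to 600748 in the dm3 build), and the longest unexpressed run held 5, from yellow-h to NfI (248548 to 296995). The unexpressed gene ci (68336 to 83750), the transcription factor of the Hedgehog pathway, lay next to RpS3A (85851 to 87833), the most abundant locus of the chromosome. The expressed coding loci were long, with a median extent of 10993 bp against 4111 bp for expressed coding loci of the 3 arms, and 50% of them had a single annotated transcription start against 69.6%. The extent is that of the block assembled by the authors, in which overlapping genes carry the same coordinates. On chromosome 4, 40 loci shared coordinates with another locus, in 18 blocks. The methods name a stranded library kit for the course at 25°C but do not state whether counting used the strand, so it is not known how far reads of overlapping sense and antisense genes were separated.

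The most abundant transcript was RpS3A (XLOC_013194 at 25°C), which encodes a protein of the small ribosomal subunit. Its FPKM at 25°C lay between 3105 at CT54 and 4289 at CT60, with a median of 3689 and a mean of 3700 ± 261 (SD, n = 20). At 28°C it lay between 595 at CT60 and 1209 at CT27, with a mean of 830 ± 190. No other locus of the chromosome came near this level. All loci of chromosome 4 together held between 0.594% and 0.729% of the summed FPKM at 25°C, and between 0.275% and 0.362% without RpS3A.

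ATPsynbeta (1050337 to 1055543), the catalytic subunit of the mitochondrial ATP synthase, followed with 538 ± 101 FPKM at 25°C and 151 ± 69.6 FPKM at 28°C. Next at 25°C came Arf4, a small GTPase of vesicle traffic, with 293 ± 32.2 FPKM, while its mean at 28°C was 28.4 ± 22.2 FPKM. Below it at 25°C were PMCA, the calcium pump of the plasma membrane, with 142 ± 25.9 FPKM, and eIF4G1, the scaffold of the cap-binding complex of translation, with 125 ± 18.4 FPKM. Rnf11, Rad23, ND-49, CG11076 and Crk completed the 10 highest, with means between 92.3 and 124 FPKM. Rad23 takes part in DNA repair and carries ubiquitinated proteins to the proteasome, ND-49 is a subunit of mitochondrial complex I and Crk is an adaptor of tyrosine kinase signalling. At 28°C the 10 highest again held RpS3A, ATPsynbeta, PMCA, ND-49, Crk, eIF4G1 and Arf4, now joined by zfh2, a zinc finger homeodomain factor (40.0 ± 8.98 FPKM), the mitochondrial membrane protein Mpv17 (34.1 ± 22.8 FPKM) and Tdg, a thymine DNA glycosylase of base excision repair (28.5 ± 27.8 FPKM). Several of these highest values come from neighbouring genes in a shared block, as ATPsynbeta with CG11076, PMCA with Rnf11 and zfh2 with Tdg.

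The members were next read by role. All 4 genes for RNA and translation (RpS3A, eIF4G1, gw and Gyf) and both mitochondrial energy genes were expressed in both courses, with median levels of 89.3 and 325 FPKM at 25°C. Of 8 kinases, GTPases and adaptors 7 were expressed in each course, and the exception, RhoGAP102A, had a mean of 0.0628 FPKM at 25°C and was listed at 0 in all libraries at 28°C. Of 19 transcription factors and DNA-binding proteins 10 were expressed at 25°C and 11 at 28°C.

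The expressed factors included general and signalling regulators: zfh2, the Polycomb DNA-binding protein pho (53.4 FPKM at 25°C), the cofactor Hcf (41.6), the Wingless pathway members lgs (24.6) and pan (16.6), the Mediator subunit MED26 (21.5) and the lysosomal regulator Mitf (16.2). Other factors of the list lay near 0. At 25°C ey had a lowest value of 0.185, a median of 0.294 and a highest of 0.474 FPKM, and toy a mean of 0.0618 FPKM. The Pax gene sv had 0.0454, Sox102F 0.0466, ci 0.0550, NfI 0.0234, onecut 0.0145 and fd102C 0.00762 FPKM. At 28°C sv, Sox102F, NfI, onecut and fd102C were listed at 0 in all libraries. The factor dati straddled the threshold, with 0.826 FPKM at 25°C and 1.03 FPKM at 28°C.

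Of 4 secreted ligands, myo, a ligand of the TGF-beta family (42.5 FPKM at 25°C), and Ephrin (26.1 FPKM) were expressed in both courses, whereas mav (0.794) and the activin Actbeta (0.0135) were not. Of 5 receptors, PlexA, PlexB and Eph, which receive guidance signals, were expressed in both courses with means between 30.6 and 39.5 FPKM at 25°C. Eph was therefore found together with its ligand Ephrin, while the glutamate receptors mGluR (0.0915 FPKM) and Ekar (0.259 FPKM) were not expressed. Of 9 genes for cytoskeleton, muscle and synapse 7 were expressed at 25°C and 5 at 28°C. The muscle protein bt lay at 0.0334 FPKM, and the synaptic genes unc-13, which primes vesicles for release, and Cals, a calsyntenin, reached 12.2 and 58.4 FPKM at 25°C. In the same course elav and brp had the levels given above while the other 3 neuronal markers lay below 0.9 FPKM. Any part of other cell types in these values was not tested. Of 4 transport genes that could be matched, PMCA and the zinc transporter Zip102B were expressed in both courses and Gat and apolpp in neither. The listed gene JYalpha was not matched.

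The expressed loci of chromosome 4 stood at a higher level than those of the 3 arms at 25°C. The median of the mean FPKM was 40.6 on chromosome 4 against 25.2 on the 3 arms (25.8 on 2L, 25.4 on 3L and 24.2 on 3R) and 24.2 over all expressed loci, a difference of 0.69 on the log2 scale to the 3 arms. The lower quartile was 17.3 FPKM against 10.2 and the upper quartile 60.4 against 62.2, so that the difference lay in the lower part of the distribution. Of the 58 loci, 72.4% exceeded 20 FPKM against 57.6% on the 3 arms, and 8.62% lay below 5 FPKM against 13.5%. Library by library, the median log2(FPKM + 1) of chromosome 4 minus that of the 3 arms was lowest at CT24 with 0.50, had a median of 0.64 and was highest at CT66 with 0.81. All 20 libraries lay above 0, with a mean difference of 0.64 ± 0.08 (SD, n = 20). Such an SD is the scatter over libraries that measure the same loci, and does not cover the spread among the 58 loci. Among coding loci alone, a comparison added after the data were seen, the medians were 47.1 and 26.8 FPKM.

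At 28°C the levels did not stand apart. The median was 10.4 FPKM on chromosome 4 and 11.4 FPKM on the 3 arms, a log2 difference of -0.14. The difference per library ranged from -0.83 at CT81 to 1.73 at CT60, with a mean of 0.08 ± 0.66 (SD, n = 20), and lay above 0 in 8 of 20 libraries. The highest difference came from the shallowest library, CT60, with a relative depth of 0.251, where the median log2(FPKM + 1) of the 3 arms was 2.05. The upper quartile was 17.4 FPKM against 26.4, and 20.7% of the loci exceeded 20 FPKM against 32.0%. Hence fewer loci of chromosome 4 reached high levels than on the 3 arms at 28°C, while the lower quartiles were 5.84 and 5.25 FPKM.

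**Figure D2:**
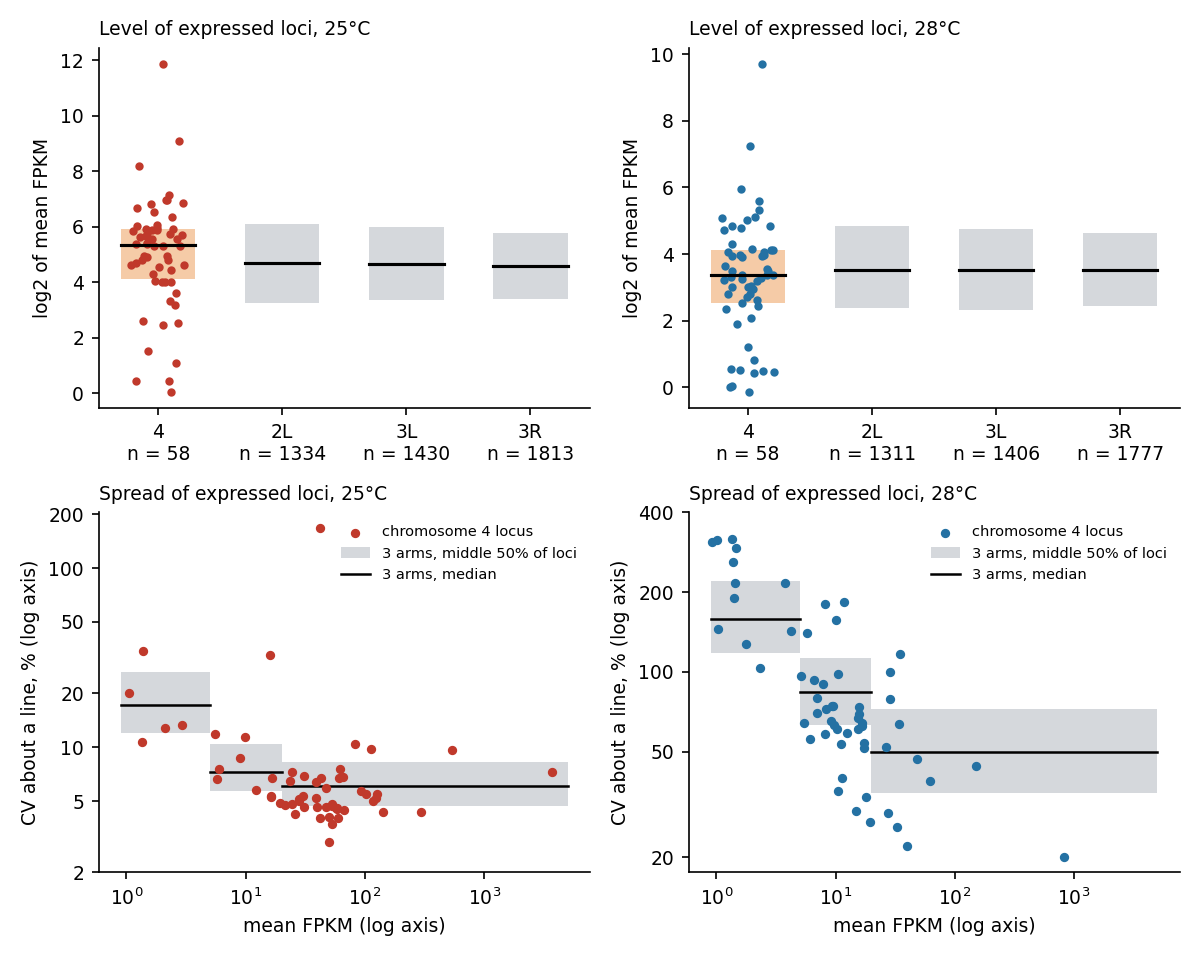
Level and spread of expressed loci at 25°C (left) and 28°C (right). Top: log2 of the mean FPKM, with boxes from the lower to the upper quartile, a black line at the median and points for single loci of chromosome 4; the median of chromosome 4 (40.6 FPKM) lies above those of 2L, 3L and 3R at 25°C and not at 28°C (10.4 FPKM). Bottom: coefficient of variation (CV) of the FPKM about a straight line in time against mean FPKM (both log axes), with points for chromosome 4 and grey bands for the middle 50% of the loci of the 3 arms in 3 classes of level.

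Of the 54 loci expressed in both courses, 52 had a lower mean FPKM at 28°C. The median log2 ratio of 28°C to 25°C was -1.68, against -1.27 for 4251 loci of the 3 arms. The order of levels was largely kept, with a Spearman correlation of 0.82 over the 54 loci, which share their libraries and length scaling within each course. The largest falls of the log2 ratio were -3.36 for Arf4, -3.04 for Zyx, a zyxin of actin structures and Hippo signalling, -3.01 for the GTPase Arl4, -2.90 for Rad23 and -2.75 for CG11076. At the other end stood unc-13 with 0.46, asRNA:CR45126 with 0.37, asRNA:CR45124 with -0.03, pan with -0.10 and zfh2 with -0.60. The mean of unc-13 was 12.2 FPKM at 25°C and 16.8 FPKM at 28°C. For asRNA:CR45124, 18 of the 20 libraries were listed at 0 at 28°C, so that its ratio rests on a pair of libraries and was -1.13 without CT51. asRNA:CR45126 had means of 2.90 FPKM at 25°C and 3.74 FPKM at 28°C, but at 28°C it was listed at 0 in 11 libraries and reached 28.2 FPKM at CT78, without which its ratio was -0.24.

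The next question was whether the loci drifted over the time course. Each profile was regressed on time with limma on log2(FPKM + 1), and the change is given over the 57 h from CT24 to CT81. At 25°C, 26 of the 58 expressed loci of chromosome 4 rose (44.8%), where 32.4% of all 7531 expressed loci rose, and 12 fell (20.7%), where 35.6% of all fell (limma, Benjamini-Hochberg adjusted P-value below 0.05). The other 20 were not called. The median change was 0.09 on chromosome 4, against -0.02 on 2L, -0.03 on 3L and -0.04 on 3R, and 60.3% of the loci had a change above 0 against 47.3% on the 3 arms. These shares describe the loci and were not tested as a group. Changes were mostly small, with a median size of 0.20 against 0.31 on the 3 arms, and 15 of the called loci had an estimate above 0.5 in size. In classes of level, 4 of 5 loci below 5 FPKM and 8 of 11 between 5 and 20 FPKM rose, against 39.0% and 33.1% on the 3 arms, while above 20 FPKM 14 of 42 rose and 11 fell, against 29.0% and 44.6%.

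**Figure D3:**
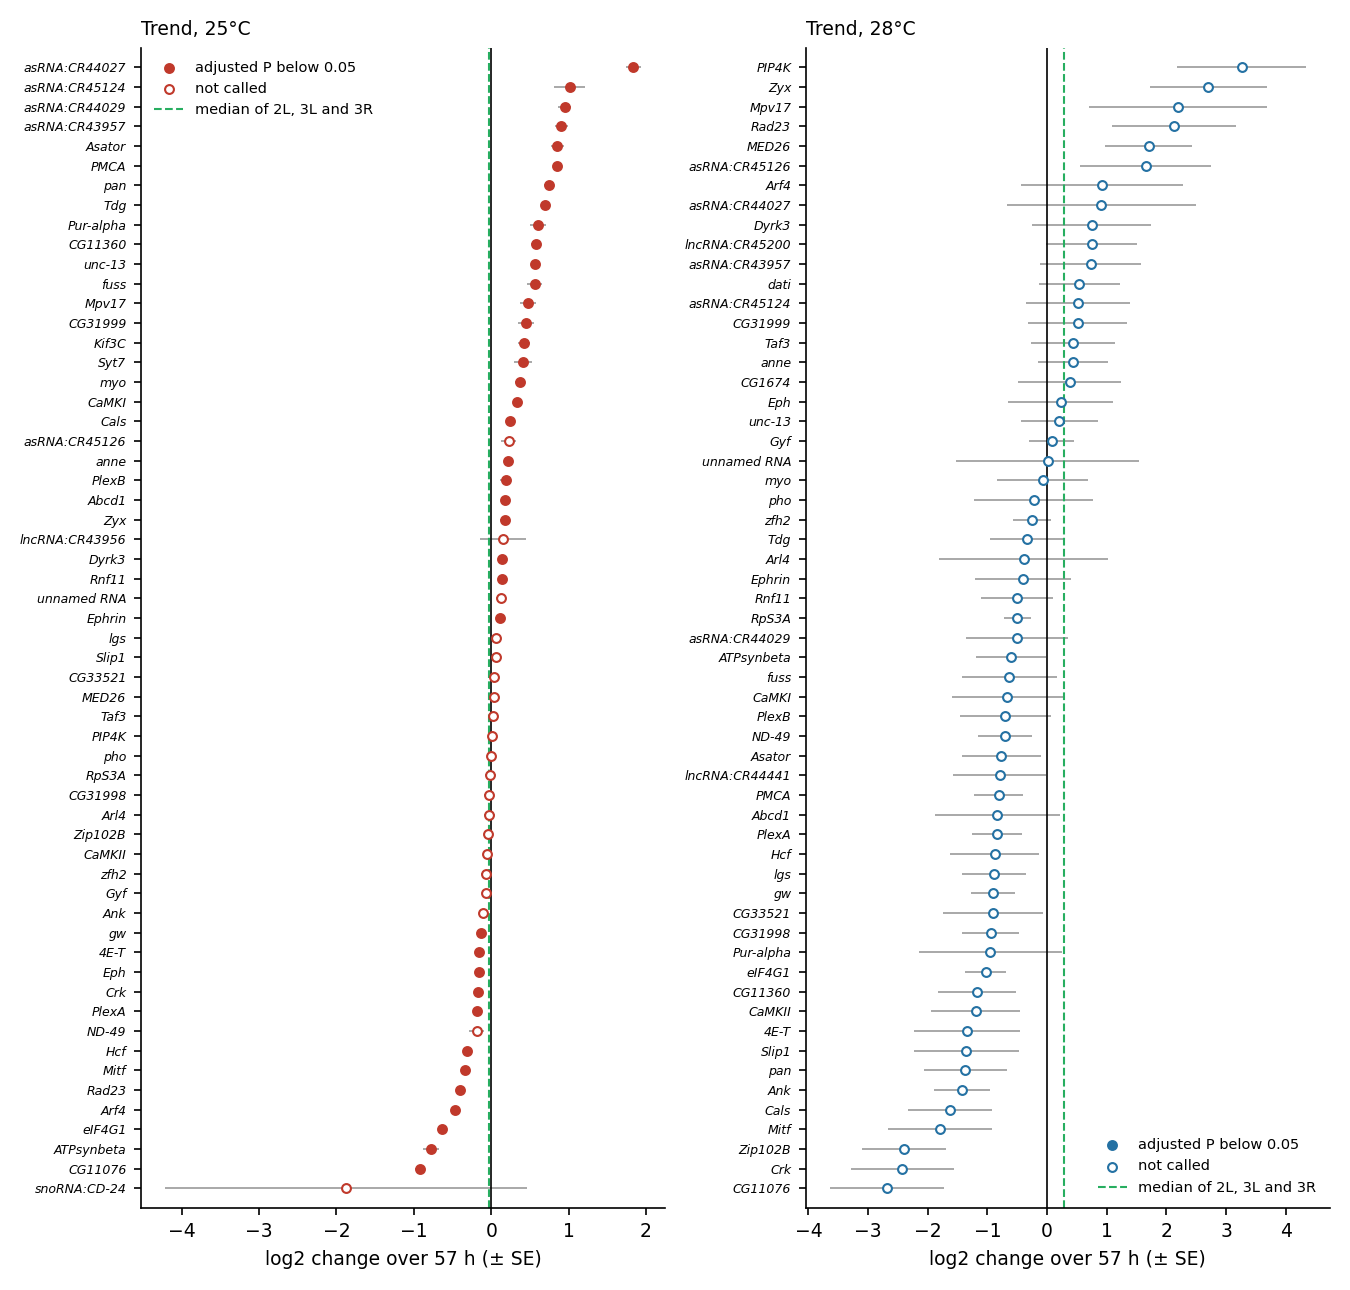
Log2 change over 57 h with its SE, from limma on log2(FPKM + 1), for the 58 expressed loci of chromosome 4 at 25°C (left) and the 58 at 28°C (right), sorted by size. Filled points have an adjusted P-value below 0.05 and the dashed line is the median of the 3 arms; 26 loci rose and 12 fell at 25°C, and none was called at 28°C, where the changes are larger and so are their errors.

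The largest rise was that of asRNA:CR44027 (XLOC_013157, 396266 to 416580), a non-coding RNA named as antisense. Its FPKM was lowest at CT24 with 10.5, had a median of 25.9 and was highest at CT81 with 40.3, and the log2 change was 1.84 ± 0.10 (SE; limma, Benjamini-Hochberg adjusted P = 2.53e-12). Its first and last libraries were also its lowest and highest. It shares its block with dati and lncRNA:CR45125. The mean of dati was 0.826 FPKM, with its lowest value (0.372) likewise at CT24 and its highest (1.28) at CT81. Whether any of its reads came from the antisense RNA was not tested.

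The next largest rises were again antisense RNAs. asRNA:CR45124, in a block with PlexB, rose by 1.01 ± 0.20 from a lowest value of 0.374 FPKM at CT36 to a highest of 2.99 FPKM at CT81 (median 1.30). The change of this low locus depends on the pseudocount and was 1.74 with a pseudocount of 0.1 FPKM in place of 1. asRNA:CR44029, in a block with unc-13, rose by 0.95 ± 0.09 from 3.14 FPKM at CT24 to 7.96 FPKM at CT66 (median 6.20). asRNA:CR43957, in a block with ci, rose by 0.90 ± 0.08 from 5.96 FPKM at CT27 to 12.4 FPKM at CT81 (median 9.14). Of the 5 expressed loci named as antisense RNA 4 rose, with limma adjusted P-values (Benjamini-Hochberg) of at most 0.000126. The other, asRNA:CR45126, had a change of 0.22 ± 0.10 and an adjusted P of 0.0558. Over all expressed loci 32.4% rose, with 37.5% below 5 FPKM, 34.2% between 5 and 20 FPKM and 30.1% above. The share of antisense RNAs that rose on other chromosomes was not determined. The coding partners on chromosome 4 differed among themselves. unc-13 rose by 0.57 ± 0.06 and PlexB by 0.19 ± 0.07, while ci stayed near 0 with a highest value of 0.110 FPKM.

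Among coding genes the rise was led by Asator, a kinase of the tau tubulin kinase family, with FPKM of 38.4 at CT24, a median of 64.2 and 79.2 at CT69 (log2 change 0.86 ± 0.09, limma adjusted P = 3.59e-08). PMCA ran from 95.2 FPKM at CT24 over a median of 145 to 177 at CT78 (0.85 ± 0.06, adjusted P = 6.36e-11 by limma). PMCA had its 3 lowest values in the first 3 libraries. For pan, the DNA-binding partner of Armadillo in Wingless signalling, the lowest value was 12.7 FPKM at CT45, the median 16.1 and the highest 22.6 at CT78 (0.74 ± 0.06, adjusted P = 2.55e-09 by limma). Tdg, which shares a block with zfh2, ran from 44.2 FPKM at CT24 over a median of 56.4 to 72.6 at CT81 (0.69 ± 0.05). In the same block zfh2 had a change of -0.06 ± 0.07 and was not called.

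The 12 falls were led by CG11076, which lies in a block with ATPsynbeta. CG11076 had its highest value of 140 FPKM at CT24, a median of 101 and its lowest of 73.4 at CT72, with a log2 change of -0.92 ± 0.06 (limma adjusted P = 3.19e-11). ATPsynbeta had its highest value of 696 FPKM at CT30, a median of 559 and its lowest of 387 at CT75, with a change of -0.78 ± 0.10 (adjusted P = 1.47e-06 by limma). Both were high at the start and low in the last 5 libraries, and they are not independent if reads were shared. The other mitochondrial energy gene, ND-49, had a change of -0.19 ± 0.10 and was not called (adjusted P = 0.0956).

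eIF4G1 was highest at CT36 with 154 FPKM, had a median of 122 and was lowest at CT81 with 101, a change of -0.63 ± 0.06 (limma adjusted P = 4.44e-09). Arf4 ran from 346 FPKM at CT30 over a median of 286 to 248 at CT78 (-0.47 ± 0.05), and Rad23 from 134 at CT33 over 120 to 98.0 at CT66 (-0.40 ± 0.05). Smaller falls were found for Mitf (-0.33 ± 0.05), Hcf (-0.31 ± 0.04) and PlexA (-0.18 ± 0.05). All of the 8 loci with the largest falls were coding, as were 50 of the 58 expressed loci, and 5 of these 8 were among the 10 with the highest mean. Over all expressed loci, 43.8% of those above 20 FPKM fell against 15.6% of those below 5 FPKM.

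**Figure D4:**
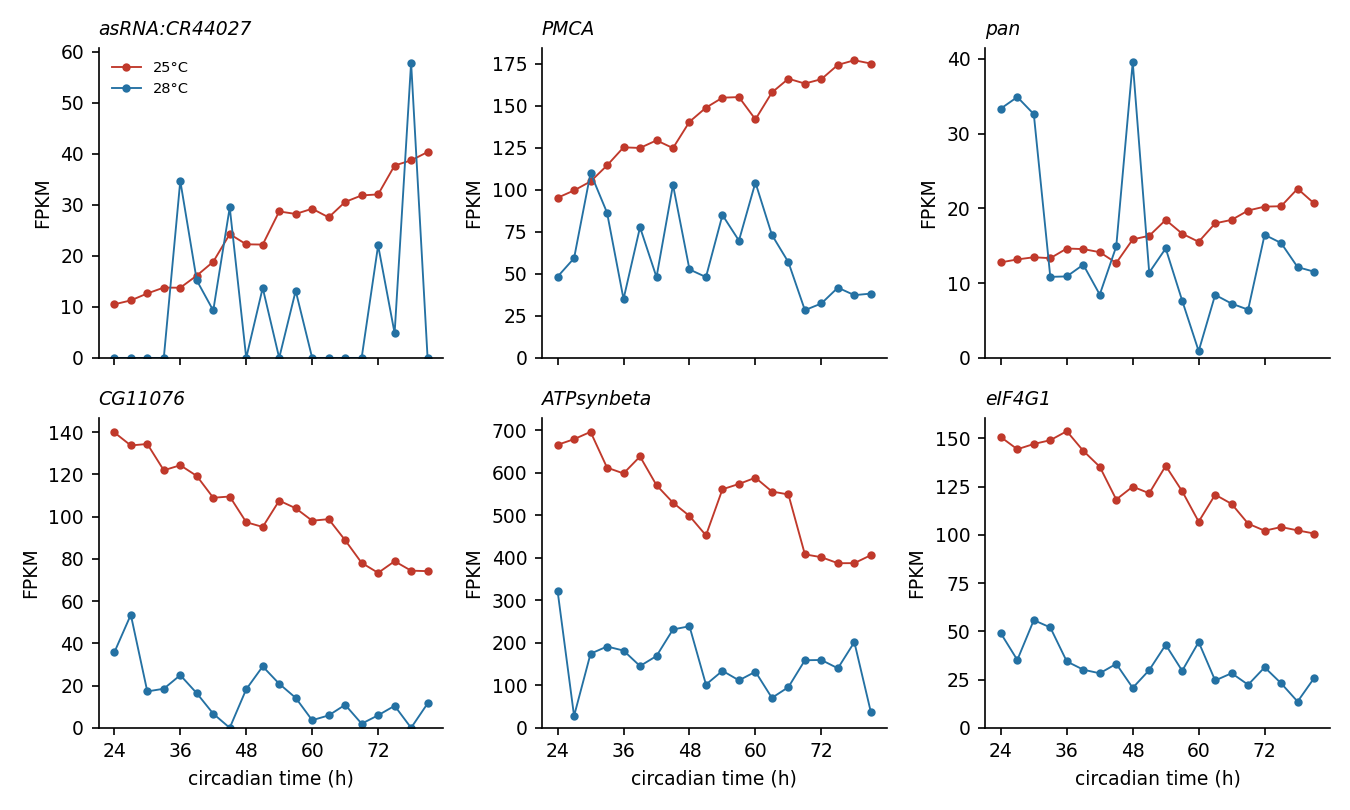
FPKM in each library against circadian time for 3 loci that rose at 25°C (top) and 3 that fell (bottom), at 25°C (red) and 28°C (blue), with 1 library per point. At 25°C asRNA:CR44027 climbs from 10.5 to 40.3 FPKM and CG11076 drops from 140 to 74.2 FPKM, while the profiles at 28°C scatter and asRNA:CR44027 is listed at 0 in 11 libraries.

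By role, 5 of 7 expressed genes for cytoskeleton, muscle and synapse rose at 25°C and 0 fell (limma; Slip1 had a change of 0.06 ± 0.05 and Ank, an ankyrin, of -0.10 ± 0.05). Over all expressed loci 32.4% rose and 35.6% fell, and the counts by role, each of few genes, were not tested. Both expressed ligands rose, myo by 0.37 ± 0.07 and Ephrin by 0.11 ± 0.04. Of the receptors PlexB rose and PlexA and Eph fell, the latter by -0.16 ± 0.05. Of the 10 transcription factors and DNA-binding proteins 3 rose (pan, Tdg and Pur-alpha) and 3 fell (Mitf, Hcf and Rad23). Of the 4 genes for RNA and translation eIF4G1 and gw, the GW182 protein of microRNA silencing (-0.13 ± 0.05), fell and 0 rose. RpS3A had a change of -0.01 ± 0.08, so that the most abundant locus showed no detectable drift.

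At 28°C, 0 of the 58 expressed loci were called in either direction by limma, where 1.15% of all 7363 expressed loci rose and 0.122% fell. Kendall's tau called 0 as well. At an unadjusted P-value below 0.05 limma gave 8 falls and 3 rises on chromosome 4, 19.0% of its loci against 13.0% of all. The errors were wide, with a median SE of 0.78 against 0.06 at 25°C, and the smallest adjusted P was 0.108, for Zip102B (-2.39 ± 0.70). The estimates as a group are given here as a description. The median change was -0.50 on chromosome 4 and 0.24 on 2L, 0.31 on 3L and 0.31 on 3R, and 37 of 58 loci (63.8%) lay below 0 against 39.5% on the 3 arms. In classes of level, 83.3% of the loci above 20 FPKM lay below 0 against 39.1% on the 3 arms. Between 5 and 20 FPKM the shares were 64.7% and 39.0%, and below 5 FPKM 41.7% and 40.7%.

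Depth also changed over the course at 28°C, and its part in these estimates was not tested. Relative depth averaged 0.985 in the first 10 libraries and 1.25 in the last 10, and the sum of FPKM rose from a mean of 704754 to 870399. The loci of the 3 arms dipped in the shallow libraries CT27, CT48 and CT60 and at CT24, and 44.9% of them were listed at 0 at CT27 and 37.0% at CT24, against a median of 19.8% over the libraries. On chromosome 4 the share listed at 0 was 27.6% at CT24, CT48 and CT60 and 29.3% at CT27, against a median of 17.2%. The median deviation of its loci from their own means was nevertheless only -0.12 at CT60 and lay above 0 at CT27 and CT48. When those 3 libraries were left out, an alternative added after the data were seen, the medians were -0.63 on chromosome 4 and 0.16 on the 3 arms, and eIF4G1 passed the test (-1.19 ± 0.29, adjusted P = 0.0437 by limma), where 1.49% of all loci rose and 0.326% fell. Leaving out any 1 library kept the median of chromosome 4 between -0.62 and -0.29 and that of the 3 arms between 0.15 and 0.36. The medians depended on the ends of the course, with -0.29 on chromosome 4 and 0.23 on the 3 arms without CT24, and -0.33 and 0.36 without CT78, while 0.15 was reached on the 3 arms without CT27. Among loci that reached 0.9 FPKM in all 20 libraries, where no value is 0, 17 of 20 on chromosome 4 had a change below 0 (85%) against 46.4% on the 3 arms, with medians of -0.73 and 0.10. In that set Ank (-1.43 ± 0.42, adjusted P = 0.0357) and eIF4G1 (-1.03 ± 0.32, adjusted P = 0.0461, both by limma with Benjamini-Hochberg adjustment) fell, where 6.34% of all such loci rose and 2.16% fell.

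In single libraries, the deviation of chromosome 4 from its own means was lowest at CT78 with -0.56 and highest at CT54 with 0.50. At CT78, with a relative depth of 0.676, 34.5% of its loci were listed at 0, the largest share of the course. The deviation of chromosome 4 averaged 0.05 over the first 5 libraries and -0.29 over the last 5, while that of the 3 arms averaged -0.23 and 0.09. At 25°C the same measure ran the other way and was far smaller, from -0.04 over the first 5 libraries to 0.03 over the last 5 on chromosome 4, and from 0.02 to -0.02 on the 3 arms. The 24 loci that rose at 25°C and were expressed at 28°C had a change below 0 at 28°C in 15 cases, and the 12 that fell at 25°C in 9 cases. Over all 58 loci expressed at 28°C the count was 37 (63.8%), so the loci that rose at 25°C did not stand apart.

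**Figure D5:**
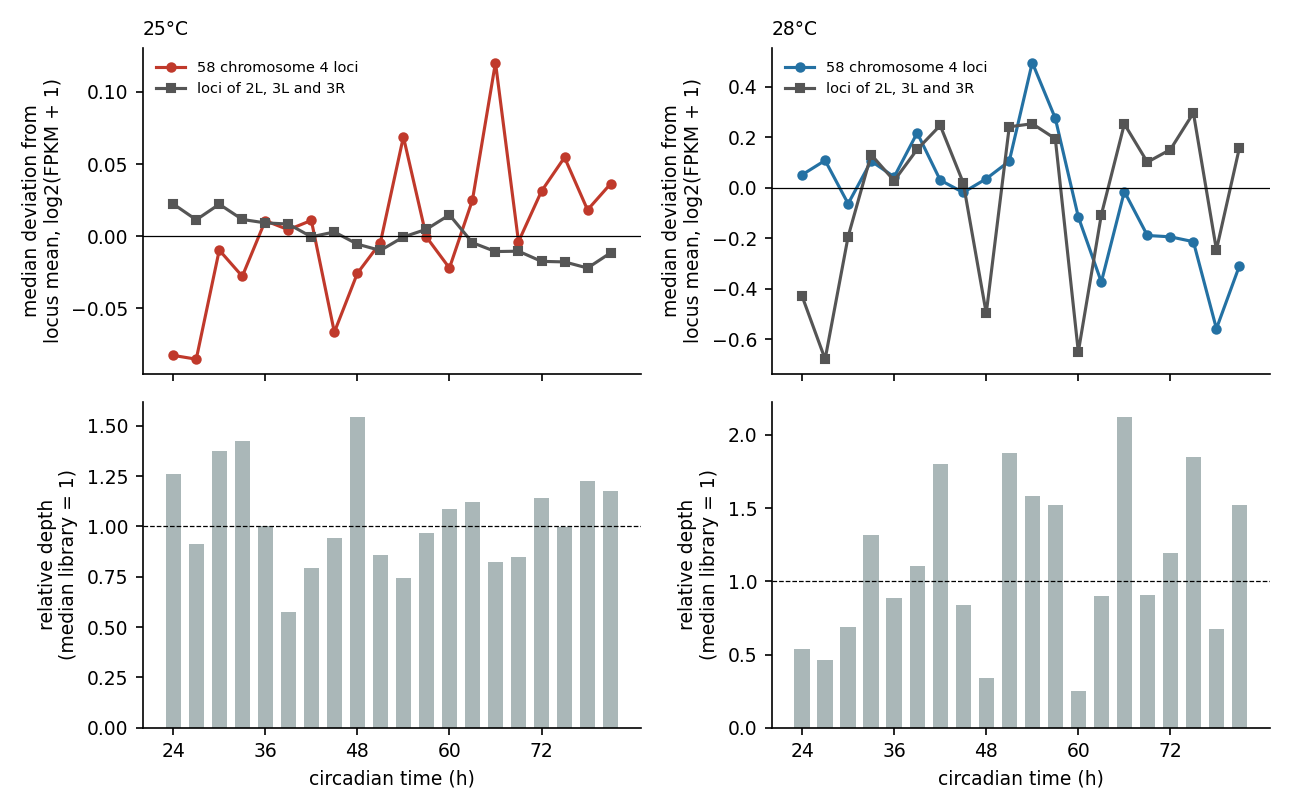
Top: median deviation of log2(FPKM + 1) from the mean of each locus, per library, for the 58 expressed loci of chromosome 4 (coloured) and for those of the 3 arms (grey), at 25°C (left) and 28°C (right), on different scales. Bottom: relative depth of the same libraries, with the median library at 1; at 28°C the grey line dips at CT24, CT27, CT48 and CT60, whose relative depths are 0.539, 0.464, 0.337 and 0.251, and chromosome 4 lies below the 3 arms from CT63 on.

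Profiles of single genes at 28°C showed the breadth of the scatter. eIF4G1 had its highest value of 55.8 FPKM at CT30, a median of 30.0 and its lowest of 13.6 at CT78. CG11076 reached 53.5 FPKM at CT27, had a median of 12.9 and was listed at 0 in 2 libraries, with a change of -2.69 ± 0.96 (limma adjusted P = 0.212). Crk reached 198 FPKM at CT24, had a median of 17.5 and a lowest value of 2.08 at CT39, and CT24, CT27 (105 FPKM) and CT60 (86.6 FPKM) stood above the rest. The largest positive estimate was that of PIP4K, a phosphoinositide kinase (3.26 ± 1.08, adjusted P = 0.172 by limma), which was listed at 0 in 3 libraries. PMCA, which rose at 25°C, had a change of -0.81 ± 0.42 at 28°C and was not called (adjusted P = 0.414), with values between 28.4 FPKM at CT69 and 110 FPKM at CT30.

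The spread about the line was given as the coefficient of variation (CV), the SD about a straight line in time divided by the mean. At 25°C the median CV was 5.50% on chromosome 4 and 7.02% on the 3 arms (7.04% on 2L, 6.94% on 3L and 7.05% on 3R), a ratio of 0.784. Within classes of level the medians were 13.3% against 17.3% below 5 FPKM, 6.75% against 7.25% between 5 and 20 FPKM and 5.09% against 6.09% above 20 FPKM. The lowest CVs were those of Zip102B (2.97%), Gyf (3.74%), a GYF-domain protein of translational repression, and PIP4K (4.03%). The range of Zip102B was 47.7 to 53.2 FPKM over the 20 libraries. The highest CV was that of snoRNA:CD-24 with 167%, a small nucleolar RNA in the block of RpS3A, which was listed at 0 in 13 libraries and reached 227 FPKM at CT36. asRNA:CR45124 (34.4%) and lncRNA:CR43956 (32.8%) followed.

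At 28°C the median CV was 69.6% on chromosome 4 and 83.8% on the 3 arms. The loci between 5 and 20 FPKM had 64.8% against 83.6% and those above 20 FPKM 45.4% against 50.03%, whereas the 12 loci below 5 FPKM had 216% against 158%. Only 25 of the 58 loci were above 0 in all libraries, compared with 57 at 25°C. The steadiest were RpS3A (20.1%), zfh2 (22.1%) and eIF4G1 (25.9%), and the most scattered asRNA:CR45124 (316%), lncRNA:CR44441 (313%) and lncRNA:CR45200 (310%), each listed at 0 in 18 libraries. The ratio of 0.831 to the 3 arms did not hold for loci that reached 0.9 FPKM in all 20 libraries, where it was 1.00.

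Rhythmicity was tested with a re-implemented JTK-Cycle on detrended profiles, with periods of 21 to 27 h and an adjustment over 24 reference curves. At 25°C, 6 of the 58 loci of chromosome 4 were called rhythmic (adjusted P-value below 0.05), or 10.3%, where 4.81% of all expressed loci were called. They were Mitf (JTK-Cycle adjusted P = 0.00862), ND-49 (0.0115), ATPsynbeta (0.0202), CaMKI, a calcium-dependent kinase (0.0202), asRNA:CR44029 (0.0343) and Gyf (0.0442). All but Gyf fitted best at 27 h, and all peaked between CT33 and CT39. Both mitochondrial energy genes were thus called, with ND-49 ranging from 94.8 FPKM at CT51 to 134 FPKM at CT60. The adjustment covers the references of 1 locus and not the number of loci, and after Benjamini-Hochberg adjustment over all loci the smallest value on the chromosome was 0.797. Without detrending 3 loci were called, of which ND-49 (0.0202) alone was among these 6, beside RpS3A (0.0343) and CaMKII (0.0442). Without CT24 and without CT66 the count was 3 in each case, and without CT51 it was 9. The call of Gyf was also lost on log2(FPKM + 1) (JTK-Cycle adjusted P = 0.0565) and after median-of-ratios scaling (0.114), where the others named kept theirs. With 1 library left out, the adjusted P rose to at most 0.158 for Gyf and asRNA:CR44029. It reached 0.124 for CaMKI and ATPsynbeta and 0.0584 for Mitf and ND-49.

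At 28°C 1 locus was called, 1.72% against 1.86% of all. This was pan (JTK-Cycle adjusted P = 0.0202, period 24 h), with 33.4 FPKM at CT24, 39.6 FPKM at CT48 and 16.5 FPKM at CT72. In the shallow library CT60 it had its lowest value, 0.914 FPKM, and without this library its adjusted P was 0.0584. Without detrending unc-13 was called (0.0343) and pan was not (0.0565). At 25°C pan had an adjusted P of 0.954.

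The genes listed as regulators of chromosome 4 lie elsewhere in the genome, and the RNA of each was above the threshold in both courses. The HP1a gene had 467 ± 47.6 FPKM at 25°C with a log2 change of -0.43 ± 0.04 (limma adjusted P = 2.78e-08), and 99.1 ± 55.8 FPKM at 28°C with -0.14 ± 0.62. Pof had 19.4 ± 0.908 FPKM at 25°C with 0.10 ± 0.04, which was not called (adjusted P = 0.0548 by limma), and 3.92 ± 4.99 FPKM at 28°C. The histone methyltransferase gene egg, in a locus joined with Lcp9, had 19.9 ± 1.84 FPKM and a change of -0.34 ± 0.05 at 25°C. Among the other listed regulators, Su(var)3-7 rose at 25°C (0.17 ± 0.05, limma adjusted P = 0.00275). Su(var)3-9, in a locus joined with eIF2gamma (-0.31 ± 0.04), and wde (-0.69 ± 0.20) fell, and G9a and Su(var)2-HP2 were not called. Any relation of these levels to those of the chromosome was not tested.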

How the data were processed

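The authors aligned single-end reads to dm3 with TopHat2 and estimated FPKM per locus on merged RefSeq models with the Cufflinks tools; at 28°C alignments were first subsampled with SAMtools. The deposited FPKM were normalised by the authors within each course and used as deposited, without rescaling. The numbers of reads behind single values were not used here, so no counting error is given. Library kits named in the labels and in the methods differ. Symbols were matched through RefSeq accessions (98.3% of 15863 loci at 25°C). The deposited tables of attributes gave coordinates, whose starts were shifted by 1 to count from 1.

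Trends were fitted with limma 3.58.1 (R 4.3.3; empirical Bayes with an intensity trend) on log2(FPKM + 1), with a pseudocount of 1, over all loci with a mean of at least 0.9 FPKM, and adjusted by Benjamini-Hochberg over 7531 loci at 25°C and 7363 at 28°C. Changes on this scale understate those of low loci. JTK-Cycle and Kendall's tau were written in Python 3.11.15. All 3 tests were tested on simulated data. Levels and spread were compared without a test, since loci are not replicates.

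Members and lists were chosen with earlier results of these data known. Named were, per course, the 10 highest means, the 8 largest rises and falls, the rhythmic loci, the 3 extreme CVs, the 3 loci on each side of the threshold, the 5 extreme ratios between courses, and members of role lists. Other loci were named after their values were seen. Promoter motifs and gene sequences were not analysed here.

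Alternatives were a pseudocount of 0.1, 0.9 FPKM in every library, no filter, a mean of 1.8 or a median of 0.9 FPKM, median-of-ratios scaling, Kendall's tau, no detrending, other measures of level and spread, and leaving out each library. Coding loci alone, libraries with a relative depth of at least 0.5 and ratios between the courses with 1 library left out were added after seeing the data.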

Additional observations from a re-analysis of the deposited data

How the results depend on the processing

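At 25°C the counts of 26 rising, 12 falling and 58 expressed loci stayed within 1.5 times of their values under every alternative run, with 22 to 28 rising and 11 to 13 falling when 1 library was left out, and all 383 alternative values for the 16 named trends kept direction and call. The level difference of 0.69 (log2) at 25°C was 0.57 with 0.9 FPKM in every library, 2.08 without a filter and 0.81 for coding loci. The CV ratio of 0.784 at 25°C was 0.845 for the SD of log2 values, 0.935 for the highest over the lowest FPKM and 0.8004 with 0.9 FPKM in every library. Rhythmic calls at 25°C numbered 3 without detrending and 3 to 9 with 1 library left out, and 43 of 168 alternative values for single rhythmic loci missed the threshold. At 28°C, 20 loci had 0.9 FPKM in every library, of which 2 fell, and 1 locus fell with a relative depth of at least 0.5. Leaving out 1 library gave 0 to 1 rising (PIP4K without CT78), 0 to 1 falling (Crk without CT39) and 0 to 2 rhythmic loci. The level difference of -0.14 at 28°C turned to 0.01 without a filter (0.00640), and the CV ratio of 0.831 was 1.43 for the highest over the lowest FPKM and 1.00 with 0.9 FPKM in every library. The cause of these shifts was not tested. No paired analysis was possible because the labels give no replicate numbers and the courses were not tested against each other. With 1 library per time point and FPKM without read numbers, depth limits the low loci most, above all at 28°C.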
